A study of Mus musculus with 7 samples.

Results

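Metallothioneins, aldehyde dehydrogenases, a carboxylesterase and a paraoxonase were followed across whole soleus muscles of dystrophic mice. The 9 genes (Mt1, Mt2, Mt3, Aldh1a1, Aldh1a2, Aldh1a3, Aldh3a1, Ces1f and Pon1) were taken by symbol from a table of 29869 genes, and all 9 passed the filter on low counts that left 14033 genes for the fit. They were selected on the difference between the 2 groups described below, that is on their read counts in these same libraries, so their values in that difference are given as a description and carry no test. The soleus is a hindlimb muscle rich in slow fibres. Transcripts were counted in 3 muscles labelled mdx/Runx1f/f and 4 labelled mdx, 1 per animal by the titles, all from mice aged 60 days. Every animal was mdx, a mouse mutant without dystrophin that serves as a model of Duchenne muscular dystrophy. The first group also carried floxed alleles of Runx1, a transcription factor gene that muscle induces after damage or denervation. The labels name no Cre driver and no deleted part of Runx1, so it is not known from them in which cells the gene would be lost.

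Metallothioneins are small proteins rich in cysteine that bind zinc and copper. Mt1 and Mt2 are made in most tissues, and metals, glucocorticoids and inflammation induce them, while Mt3 is best known from the brain. Aldehyde dehydrogenases oxidise reactive aldehydes to acids: Aldh1a1, Aldh1a2 and Aldh1a3 turn retinaldehyde into retinoic acid, and Aldh3a1 acts on aromatic and medium-chain aldehydes and on products of lipid peroxidation. Ces1f is a mouse member of the carboxylesterase family, which cleaves ester bonds in drugs and lipids, and Pon1 encodes a lactonase that circulates on high-density lipoprotein and is made mainly by the liver.

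The total count per library was 16218306 to 20847902. Runx1 itself was higher in libraries labelled mdx/Runx1f/f, at 919, 925 and 596 normalised counts (read counts divided by the authors' size factor) in replicates 1 to 3, against 274, 273, 235 and 201 in the libraries labelled mdx. On the log2 scale it was 1.74 higher (SE 0.18, edgeR adjusted p = 0.00795; 4.02e-13 to 0.131 over the other fits), which goes against a loss of the transcript, so each group is called by its label. The description field ties most animal numbers to other samples than the titles do, and the design text swaps the group sizes. Every direction here rests on the titles. Muscle fibre genes were abundant in every library: the summed normalised count of 8 defining genes was 1036036 to 1296941 in the libraries labelled mdx/Runx1f/f and 1407987 to 1769873 in those labelled mdx. In whole muscle, fewer cells of a type and less RNA per cell cannot be told apart.

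The 3 metallothionein genes lie side by side on chromosome 8, and the sequences before their starts are shown. Mt1 and Mt2 moved together from library to library, while Mt3 followed them only in part. The part of these sequences in that pattern was not tested. Each line gives the 250 bases upstream of the annotated start on the plus strand, from RefSeq on GRCm38.p6. The windows are chr8:94178839-94179088 for Mt1, chr8:94172368-94172617 for Mt2 and chr8:94152357-94152606 for Mt3. Capitals mark the core of the metal response element, searched as TGCGCNC or TGCACNC on both strands.
Mt1: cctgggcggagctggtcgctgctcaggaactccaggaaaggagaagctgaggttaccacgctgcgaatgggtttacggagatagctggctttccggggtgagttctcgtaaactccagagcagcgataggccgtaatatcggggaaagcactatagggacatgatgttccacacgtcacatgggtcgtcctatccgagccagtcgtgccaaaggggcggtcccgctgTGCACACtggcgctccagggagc
Mt2: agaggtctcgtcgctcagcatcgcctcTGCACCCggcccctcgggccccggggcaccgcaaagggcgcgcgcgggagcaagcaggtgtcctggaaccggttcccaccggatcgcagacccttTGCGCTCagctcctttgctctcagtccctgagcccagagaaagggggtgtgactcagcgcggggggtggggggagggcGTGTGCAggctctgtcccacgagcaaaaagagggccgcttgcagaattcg
Mt3: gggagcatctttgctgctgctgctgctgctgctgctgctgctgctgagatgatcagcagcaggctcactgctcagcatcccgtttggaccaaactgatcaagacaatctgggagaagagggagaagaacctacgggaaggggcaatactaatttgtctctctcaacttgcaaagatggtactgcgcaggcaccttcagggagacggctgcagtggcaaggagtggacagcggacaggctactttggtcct
The Mt2 stretch holds 3 cores, the Mt1 stretch 1, and the Mt3 stretch none. With the 50 bases after the start included, a window of 300 bases, Mt1 had 3 matches, Mt2 had 4 and Mt3 had 1. Of the 3 matches of Mt1, 2 reached past the start. The counts depend on the annotated start that was used, and bases further downstream were not searched. They are therefore not counts for a whole promoter. Among 32851 such windows in the RefSeq table, 25.7% held at least 1 match and 0.518% held 4 or more. Windows were found for 6 of the 9 genes, 7 windows in all; Aldh1a3, Aldh3a1 and Ces1f had none. The other windows held 1 core for Aldh1a2 and none for Pon1 or either start of Aldh1a1. The antioxidant response core TGACNNNGC, on both strands, was in the windows of Mt2 and Aldh1a2 and in 12.4% of all windows. The Runx letters TGTGGT or TGCGGT, on both strands, were in the window of Mt2 and in 22.4% of all windows. A match is a description of the letters and not a binding site.

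Mt1 and Mt2 had the highest group means of the 9 genes per length, and both varied widely between animals of the same group. Mt1 stood at 1195, 4963 and 755 normalised counts in replicates 1 to 3 labelled mdx/Runx1f/f, against 1982, 2211, 460 and 395 in replicates 1 to 4 labelled mdx. The groups overlapped, and replicate 2 of the first group was the highest library. Mt2 stood at 924, 3894 and 425 in the libraries labelled mdx/Runx1f/f, against 1331, 1740, 176 and 96.7 in those labelled mdx. It overlapped in the same way, with the same library highest and mdx replicates 3 and 4 lowest in both genes. The fitted log2 fold change, mdx/Runx1f/f over mdx, was 0.87 (SE 0.80) for Mt1 and 1.07 (SE 1.05) for Mt2. Both values turned on 1 animal: without mdx/Runx1f/f replicate 2 they were -0.36 and -0.29. Without mdx replicate 2 that of Mt2 was 1.71.

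Within the libraries labelled mdx, Mt1 averaged 2096 normalised counts in animals 358 and 361 and 428 in animals 373 and 375, a ratio of 4.90. For Mt2 the averages were 1536 and 136, a ratio of 11.3. The labels give no meaning to these number series, so whether they mark a batch is not known. Within animals 358 to 363 the log2 fold change was 0.57 for Mt1 and 0.66 for Mt2, and within animals 373 to 375, where 1 library is labelled mdx/Runx1f/f, it was 0.82 and 1.65. The level of Mt2 relative to Mt1 varied too. Mt2 had 0.773, 0.785 and 0.563 normalised counts per count of Mt1 in the libraries labelled mdx/Runx1f/f, and 0.672, 0.787, 0.381 and 0.245 in those labelled mdx. The ratio was lowest in the libraries with the least metallothionein RNA. After each group's mean was taken off, log2 CPM (counts scaled to library size) of both genes had a Pearson correlation of 0.98 over the 7 libraries, given as a description.

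Macrophage genes were high and low in part of the same libraries as Mt1 and Mt2. The summed normalised count of 10 macrophage markers was 15789, 32788 and 11746 in the libraries labelled mdx/Runx1f/f and 12304, 7308, 2883 and 3663 in those labelled mdx. Of these 10 markers 3 were called higher by edgeR, and none was listed at 0 throughout. The match was not complete: the marker sum was higher in replicate 1 labelled mdx/Runx1f/f than in mdx replicate 2, while Mt1 was lower. Mt1 had 0.159, 0.283 and 0.140 normalised counts per count of Lyz2, the lysozyme gene of macrophages, in the libraries labelled mdx/Runx1f/f, and 0.302, 0.605, 0.334 and 0.226 in those labelled mdx. The part of macrophages in the metallothionein levels was not tested.

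**Figure D1:**
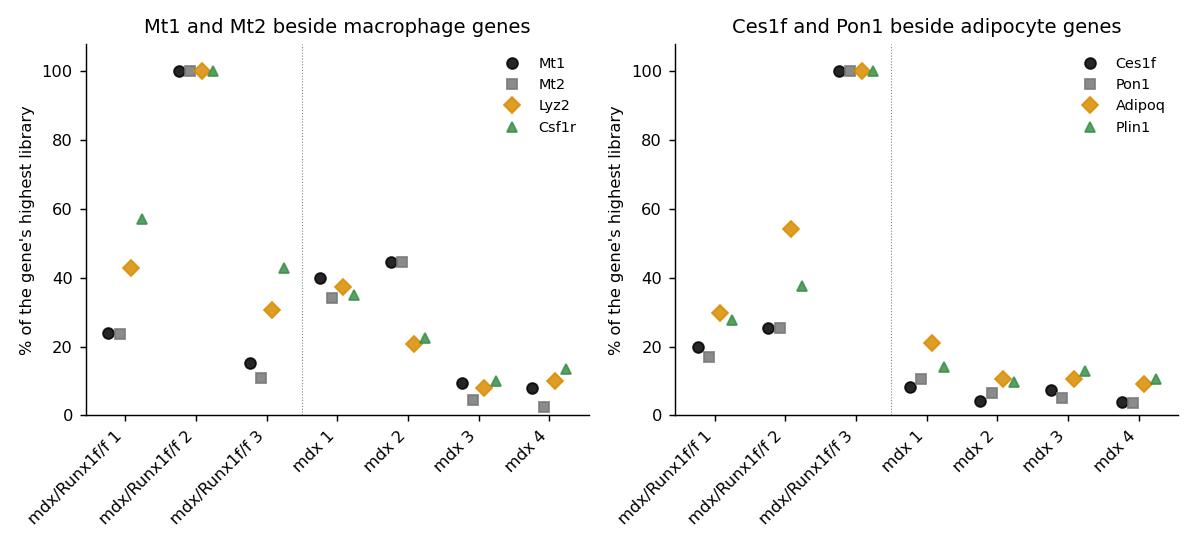
Level of each gene in each library as a percentage of that gene's highest library (vertical axis), with libraries labelled mdx/Runx1f/f left of the dotted line and those labelled mdx right of it; the 4 marker genes were chosen for the plot after their values were seen. Mt1, Mt2, Lyz2 and Csf1r were all highest in mdx/Runx1f/f replicate 2, and Ces1f, Pon1, Adipoq and Plin1 were all highest in mdx/Runx1f/f replicate 3. Of the adipocyte markers not plotted, Cidec, Retn, Cfd and Fabp4 were also highest in that replicate 3. Lep and Pparg were highest in mdx/Runx1f/f replicate 2, and Car3 and Lpl in a library labelled mdx.

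Mt3 was lower in abundance and differed in pattern over the libraries labelled mdx/Runx1f/f. It stood at 240, 60.7 and 70.5 normalised counts in the libraries labelled mdx/Runx1f/f, against 31.7, 24.0, 8.83 and 15.8 in those labelled mdx. The groups did not overlap, and replicate 1 of the first group stood well above its other 2. The log2 fold change was 2.62 (SE 0.59), and 1.70 without mdx/Runx1f/f replicate 1. Within animals 358 to 363 it was 2.43 and within animals 373 to 375 it was 2.49. Among the libraries labelled mdx, Mt3 averaged 27.9 normalised counts in animals 358 and 361 and 12.3 in animals 373 and 375. That ratio of 2.26 had the same direction as those of Mt1 and Mt2. Mt3 was highest in a library where Mt1 and Mt2 were not, and after group means were taken off its correlation over the 7 libraries was 0.21 with Mt1 and 0.31 with Mt2. The genes on either side of the cluster, Ogfod1 and Bbs2 before it and Nup93 and Herpud1 after it, had log2 fold changes between -0.36 and 0.22, and none of these 4 was called (edgeR adjusted p = 0.335 to 0.490).

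**Figure D2:**
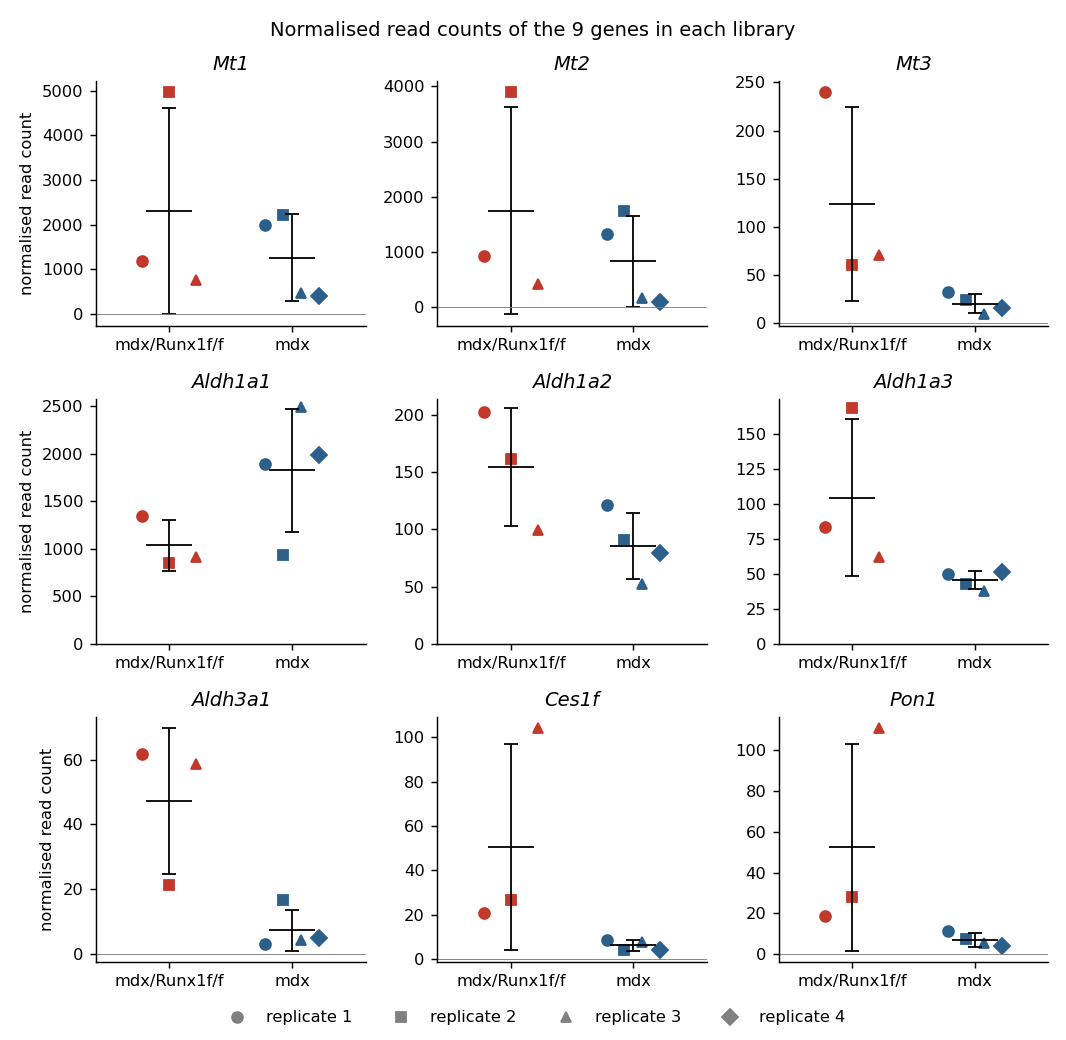
Normalised read count of each gene (vertical axis, its own scale per panel) in the 3 libraries labelled mdx/Runx1f/f (red, left) and the 4 labelled mdx (blue, right); the shape gives the replicate number, the wide bar the mean and the whiskers the SD. Mt3, Aldh1a3, Aldh3a1, Ces1f and Pon1 had groups that did not overlap, while Mt1, Mt2, Aldh1a1 and Aldh1a2 overlapped.

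None of the 3 retinaldehyde dehydrogenases was called in the fit over all genes, and no difference between them was tested. Aldh1a1, the most abundant of them, stood at 1348, 848 and 912 normalised counts in the libraries labelled mdx/Runx1f/f, against 1894, 937, 2490 and 1991 in those labelled mdx. The groups overlapped, because mdx replicate 2 was as low as the first group. The log2 fold change was -0.81 (SE 0.32). It was -0.36 within animals 358 to 363 and -1.29 within animals 373 to 375. Pdgfra, the receptor gene that marks fibro-adipogenic progenitors, the stromal cells of muscle, had a log2 fold change of 1.08 (SE 0.13, with an edgeR adjusted p of 0.0105). Aldh1a1 had 0.858, 0.517 and 0.542 normalised counts per count of Pdgfra in the libraries labelled mdx/Runx1f/f, and 2.21, 1.02, 3.72 and 3.03 in those labelled mdx. The ratios did not overlap, whereas the counts of Aldh1a1 did. Pdgfra, the divisor, was itself apart between the groups, at 1571 to 1683 normalised counts against 657 to 923 for the label mdx. Dividing by it pulled the groups apart, and Aldh1a1 was chosen on these libraries. The ratios are therefore a description, and no conclusion is drawn from their separation.

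Aldh1a2 and Aldh1a3 had fold changes of the opposite sign to Aldh1a1, and neither was called by edgeR. Aldh1a2, the main retinoic acid enzyme of the early embryo, stood at 203, 162 and 99.8 normalised counts in the libraries labelled mdx/Runx1f/f, against 122, 90.9, 51.9 and 79.0 in those labelled mdx. Replicate 3 of the first group lay below mdx replicate 1, so the groups overlapped. Its log2 fold change was 0.86 (SE 0.32), with 0.79 within animals 358 to 363 and 0.60 within animals 373 to 375. Aldh1a3 stood at 83.2, 168 and 61.8 in the libraries labelled mdx/Runx1f/f, against 49.7, 42.8, 37.5 and 51.3 in those labelled mdx. Here the groups did not overlap, though replicate 3 of the first group was near the highest mdx library. The log2 fold change was 1.21 (SE 0.34). It was 1.46 within animals 358 to 363 and 0.47 within animals 373 to 375. Relative to Aldh1a1, Aldh1a2 was at 0.150, 0.191 and 0.109 normalised counts per count in the libraries labelled mdx/Runx1f/f, and at 0.0641, 0.0970, 0.0208 and 0.0397 in those labelled mdx. The ratios did not overlap, which is a description of genes chosen on these libraries.

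Per length, measured as normalised counts per kilobase of exon in GENCODE M21, Aldh1a1 remained the leading aldehyde dehydrogenase of the 4. It averaged 210 ± 55.1 (SD, n = 3) in the libraries labelled mdx/Runx1f/f and 370 ± 131 (SD, n = 4) in those labelled mdx. Aldh1a2 averaged 68.3 ± 22.9 (SD, n = 3) and 37.9 ± 12.7 (SD, n = 4) per kilobase in the same order of groups. Aldh1a3 averaged 22.6 ± 12.2 (SD, n = 3) in the libraries labelled mdx/Runx1f/f and 9.82 ± 1.38 (SD, n = 4) in those labelled mdx. Aldh3a1 was within that spread in the first group, at 24.3 ± 11.6 (SD, n = 3), and stood at 3.76 ± 3.25 (SD, n = 4) in the second. The mean of Mt2 was above those of all 4, at 2972 ± 3190 (SD, n = 3) in the libraries labelled mdx/Runx1f/f and 1422 ± 1404 (SD, n = 4) in those labelled mdx. Mt1 averaged 1849 ± 1857 (SD, n = 3) and 1013 ± 777 (SD, n = 4) per kilobase. Library by library, Mt2 was above Mt1 in all those labelled mdx/Runx1f/f and in mdx replicates 1 and 2. It was below Mt1 in mdx replicates 3 and 4, and no difference between the 2 genes was tested. Mt1 and Mt2 did not lead in every library. In mdx replicates 3 and 4 Aldh1a1 was highest, at 504 and 403 per kilobase, against 370 and 317 for Mt1 and 299 and 165 for Mt2. Exon lengths joined all annotated exons of a gene, 1246 bases for Mt1, 588 for Mt2 and 4937 for Aldh1a1. Another choice of exons could change this order. Mt3 was at 116 ± 94.5 (SD, n = 3) in the libraries labelled mdx/Runx1f/f, between the means of Aldh1a1 and Aldh1a2, and at 18.8 ± 9.31 (SD, n = 4) in those labelled mdx, between the means of Aldh1a2 and Aldh1a3. Ces1f and Pon1 had the lowest means, at 15.3 ± 14.2 and 18.1 ± 17.5 in the first group and 1.85 ± 0.714 and 2.45 ± 1.14 in the second. Their place lay within the spread: in mdx/Runx1f/f replicate 3 they stood at 31.7 and 38.2 per kilobase, above Aldh3a1 at 30.2 and Aldh1a3 at 13.4.

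Aldh3a1 was nearly silent in most libraries labelled mdx. It stood at 61.7, 21.2 and 58.6 normalised counts in the libraries labelled mdx/Runx1f/f, against 3.17, 16.7, 4.42 and 4.94 in those labelled mdx. The groups did not overlap, but mdx replicate 2 was close to replicate 2 labelled mdx/Runx1f/f. In raw reads the libraries labelled mdx held 3, 16, 4 and 5, so counting error alone is large there. The log2 fold change was 2.67 (SE 0.59), and 3.45 without mdx replicate 2. It was 2.04 within animals 358 to 363 and 3.61 within animals 373 to 375. Aldh3a2, the neighbour of Aldh3a1 on chromosome 11 and the gene of fatty aldehyde dehydrogenase, was at 0.15 on the log2 scale (SE 0.09, edgeR adjusted p = 0.316).

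Ces1f and Pon1 followed each other closely, although they lie on chromosomes 8 and 6. Ces1f stood at 20.6, 26.5 and 104 normalised counts in the libraries labelled mdx/Runx1f/f, against 8.45, 4.18, 7.73 and 3.95 in those labelled mdx. Pon1 stood at 18.6, 28.1 and 111 in the libraries labelled mdx/Runx1f/f, against 11.6, 7.31, 5.52 and 3.95 in those labelled mdx. Neither gene had overlapping groups, and in both the third replicate labelled mdx/Runx1f/f held most of the group's reads. Pon1 had 0.905, 1.06 and 1.06 normalised counts per count of Ces1f in the libraries labelled mdx/Runx1f/f, and 1.38, 1.75, 0.714 and 1.00 in those labelled mdx, where 4 to 11 reads of each gene were counted. The log2 fold change was 3.02 (SE 0.66) for Ces1f and 2.86 (SE 0.69) for Pon1. Without mdx/Runx1f/f replicate 3 these were 1.94 and 1.71. Within animals 358 to 363 they were 1.90 and 1.32, and within animals 373 to 375 they were 4.15 and 4.52. After group means were taken off, the correlation of the pair over the 7 libraries was 0.93. Reads of Ces1f can be shared with its close paralogs, those of Aldh1a1 with Aldh1a7, and those of Mt1 with Mt2.

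Some adipocyte genes were high in the same library as Ces1f and Pon1. Adipoq, the adiponectin gene of fat cells, stood at 296, 542 and 998 normalised counts in the libraries labelled mdx/Runx1f/f, against 209, 107, 105 and 90.8 in those labelled mdx. Its order over the libraries labelled mdx/Runx1f/f was that of Ces1f and Pon1. Of 10 adipocyte markers 4 were called higher (Adipoq, Cfd, Plin1 and Cidec), with log2 fold changes of 2.20 to 2.38 (edgeR adjusted p = 0.0281 to 0.0480). The list's summed count went the other way, at 55792 to 86403 in the libraries labelled mdx/Runx1f/f and 109716 to 156752 in those labelled mdx. Car3 and Lpl, which muscle also expresses, held most of that sum, with log2 fold changes of -1.11 and -0.72. Lep, Retn, Fabp4 and Pparg had 2.48, 2.06, 0.16 and 0.27. Of these, as of Car3 and Lpl, none was called. Ces1f had 0.0695, 0.0490 and 0.104 normalised counts per count of Adipoq in the libraries labelled mdx/Runx1f/f and 0.0404, 0.0392, 0.0737 and 0.0435 in those labelled mdx, ranges that overlapped. The part of fat cells in the levels of Ces1f and Pon1 was not tested. Hepatocyte markers were at or near 0: the sum over 8 of them was 0.979, 7.58 and 13.01 normalised counts in the libraries labelled mdx/Runx1f/f and 1.06, 6.27, 0 and 3.95 in those labelled mdx. Of these Fgb was at 0 in all libraries, and Alb reached 11.9.

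Read over all 9 genes, 4 were called at an adjusted p below 0.05 in the edgeR fit over the whole table (Mt3, Aldh3a1, Ces1f and Pon1, all higher), beside 6.95% of all tested genes in either direction and 5.10% higher. In 5 of the 9 the groups did not overlap, beside 27.4% of all tested genes, with 13.9% higher. Aldh3a1, Ces1f and Pon1 had 3 to 16 reads in each library labelled mdx. They passed the filter on low counts through the libraries labelled mdx/Runx1f/f, where they were high. As the genes were chosen with these values in view, nothing is read from the shares. The count of members called was 1, 1, 0 and 0 without mdx replicates 1 to 4, and 2, 0 and 3 without mdx/Runx1f/f replicates 1 to 3. The median log2 fold change of the 9 was 1.21, beside -0.0016 over all tested genes. In the authors' deposited table the log2 fold changes had the same signs and were nearer to 0: 1.67 for Ces1f, 1.53 for Pon1, 1.56 for Aldh3a1, 1.61 for Mt3 and -0.68 for Aldh1a1. DESeq2 1.42.0 on the same counts gave 3.05 for Ces1f, so the deposited values are not on the scale used here. Aldh1a3 had an adjusted p below 0.05 in the deposited values and in the DESeq2 fit. The sum over 14 markers of fibro-adipogenic progenitors was 147455 to 168411 normalised counts in the libraries labelled mdx/Runx1f/f and 51120 to 72425 in those labelled mdx, and 10 of the 14 were called higher. The part of these cells in the 9 genes was not tested. Of the other marker lists 1 of 8 tendon, 1 of 6 Schwann cell and 1 of 8 endothelial genes were called, all higher.

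**Figure D3:**
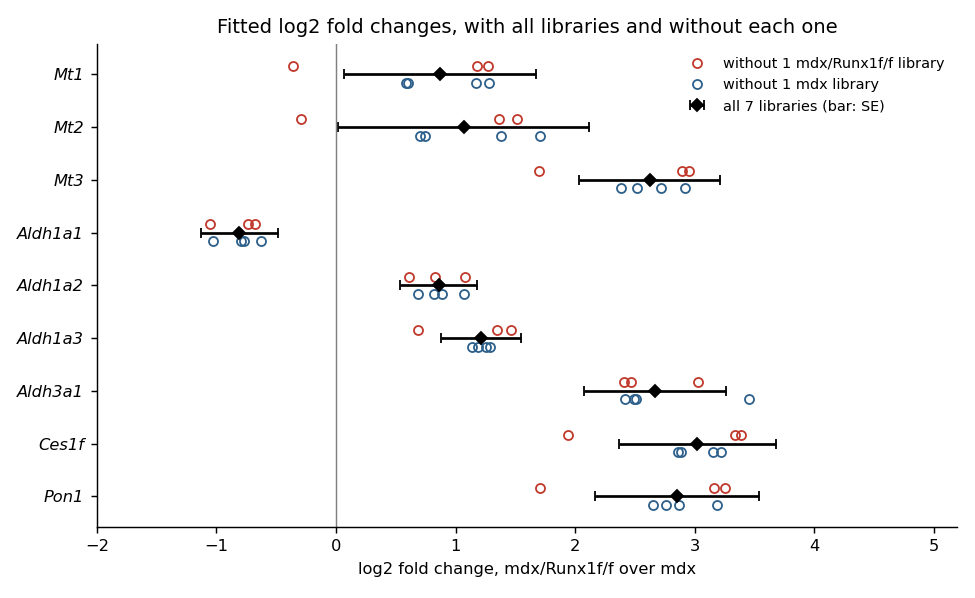
Fitted log2 fold change, mdx/Runx1f/f over mdx (horizontal axis), of each gene with all 7 libraries (black diamond, bar for the SE) and with 1 library left out (open circles, red for a library labelled mdx/Runx1f/f and blue for one labelled mdx). The values of Mt1 and Mt2 fell below 0, to -0.36 and -0.29, without mdx/Runx1f/f replicate 2, while the other 7 genes kept their sign.

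Other genes of the same pathways, none of them among the 9, were tested in the same fit. Over 9 lists that hold 194 different tested genes, 10 were higher and 6 lower, or 5.15% and 3.09%, beside 5.10% and 1.85% of all tested genes. The median log2 fold change was 0.11. Each adjusted p is the Benjamini-Hochberg value of edgeR's quasi-likelihood test over all 14033 genes.

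Zinc and metal handling changed in single genes. Of 18 tested genes of zinc transport 1 was called, Slc39a6, which encodes a zinc importer. It rose to 239 ± 49.6 normalised counts (SD, n = 3) in libraries labelled mdx/Runx1f/f, against 129 ± 24.3 (SD, n = 4) in those labelled mdx (log2 fold change 0.89, SE 0.20, edgeR adjusted p = 0.0406). Slc30a2, a zinc exporter gene, was not called, at a log2 change of -1.86 (edgeR adjusted p = 0.0556). Among 22 genes of copper and iron handling 2 rose. Trf, the gene of the iron carrier transferrin, rose most, at 1166, 1767 and 1521 normalised counts in the libraries labelled mdx/Runx1f/f against 470, 338, 283 and 297 in those labelled mdx (log2 fold change 2.10, SE 0.21, edgeR adjusted p = 0.00795). Hfe, a partner of the transferrin receptor, rose by 0.98 on the log2 scale (SE 0.16, edgeR adjusted p = 0.0187). The metalloreductase gene Steap4 was at 0.59 (edgeR adjusted p = 0.0683) and was not called. The medians were 0.15 for the zinc list and 0.10 for the copper and iron list.

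Of 15 tested aldehyde dehydrogenase genes outside the 9, 2 were called, and both were lower. Aldh6a1, a mitochondrial enzyme of valine breakdown, fell to 2424 ± 375 normalised counts (SD, n = 3) in libraries labelled mdx/Runx1f/f, against 3807 ± 264 (SD, n = 4) in those labelled mdx (log2 fold change -0.64, SE 0.13, edgeR adjusted p = 0.0312). Aldh4a1, a mitochondrial enzyme of proline breakdown, fell by 0.48 on the log2 scale (SE 0.11, edgeR adjusted p = 0.0406). Aldh1a7, the neighbour and close paralog of Aldh1a1, had 1.42 (SE 0.40, edgeR adjusted p = 0.0681), the opposite sign to Aldh1a1, on 23.3 ± 10.4 (SD, n = 3) and 8.54 ± 2.88 normalised counts (SD, n = 4). The muscle fibre sum given above, none of whose genes was called, was lower in the same libraries as the mitochondrial enzymes. Its part in them was not tested. The list's median was 0.13.

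Among 26 tested genes of the retinoid pathway 3 rose. Rarres2, which encodes the secreted protein chemerin, rose by 0.89 on the log2 scale (SE 0.15, edgeR adjusted p = 0.0187). Stra6, a receptor that takes up retinol, had 1.37 (SE 0.27, edgeR adjusted p = 0.0312) on 25.8 ± 7.14 (SD, n = 3) and 9.93 ± 1.12 normalised counts (SD, n = 4). The alcohol dehydrogenase gene Adh7 was at 1.86 (edgeR adjusted p = 0.0517) and was not called. The list's median was 0.25.

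Among 11 tested esterase and paraoxonase genes outside the 9 none was called by edgeR or limma-voom, and 1 was called by DESeq2. By edgeR 7 of them had an unadjusted p below 0.05, beside 4135 of all 14033 tested genes. Ces1d, a paralog that lies beside Ces1f, stood at 86.2, 181 and 361 normalised counts in the libraries labelled mdx/Runx1f/f, against 109, 33.4, 37.5 and 27.6 in those labelled mdx (log2 fold change 2.01, SE 0.59, edgeR adjusted p = 0.0743). Its groups overlapped, and its order in the first group was that of Ces1f. Ces5a, on the other side of Ces1f, had 1.29 (edgeR adjusted p = 0.0970). Pon2 and Pon3, the neighbours and paralogs of Pon1, had 0.36 and 0.34 (edgeR adjusted p = 0.112 and 0.147). Of 28 tested genes that neighbour the 9 on their chromosomes, 1 was called, Cgnl1 beside Aldh1a2 (log2 fold change 1.16, SE 0.17, edgeR adjusted p = 0.0157), a gene of cell junctions. The 17 neighbours not named here had log2 fold changes between -0.93 and 2.00.

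Of 31 tested genes of the antioxidant response that Nrf2 drives, 1 rose and 1 fell. Gpx1, a glutathione peroxidase, rose to 1766 ± 146 normalised counts (SD, n = 3) in libraries labelled mdx/Runx1f/f, against 1152 ± 189 (SD, n = 4) in those labelled mdx (log2 fold change 0.62, SE 0.14, edgeR adjusted p = 0.0400). Nqo2, a quinone reductase, fell by 0.51 on the log2 scale (SE 0.11, edgeR adjusted p = 0.0399). Cbr3, a carbonyl reductase, was not called, with 1.00 (edgeR adjusted p = 0.0510), and the median over the list was 0.01. Of 18 glutathione transferases 1 was called: Mgst3, a microsomal member, fell to 1653 ± 10.7 normalised counts (SD, n = 3) in libraries labelled mdx/Runx1f/f, against 2635 ± 277 (SD, n = 4) in those labelled mdx (log2 fold change -0.66, SE 0.10, edgeR adjusted p = 0.0168). Gsta4, which conjugates lipid aldehydes, had -0.57 (edgeR adjusted p = 0.0536), against a median of -0.15 over the list.

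Of 35 tested cytochromes P450 and other oxidising or conjugating enzymes, 3 rose and 2 fell, with a median of 0.20. Cyp2e1, which oxidises ethanol and small organic molecules, stood at 504, 460 and 1152 normalised counts in the libraries labelled mdx/Runx1f/f, against 303, 144, 75.1 and 77.0 in those labelled mdx (log2 fold change 2.24, SE 0.54, edgeR adjusted p = 0.0484). It was highest in the same library as Ces1f and Pon1. Cyp1b1 and the oxysterol hydroxylase gene Cyp7b1 rose with log2 fold changes of 1.84 and 1.72 (edgeR adjusted p = 0.0350 and 0.0243). Aox1, an aldehyde oxidase that also turns retinaldehyde into retinoic acid, fell to 978 ± 101 (SD, n = 3) in the libraries labelled mdx/Runx1f/f, against 2301 ± 784 (SD, n = 4) in those labelled mdx (log2 fold change -1.23, SE 0.25, edgeR adjusted p = 0.0319). Ephx2, the soluble epoxide hydrolase, fell, with a log2 change of -0.79 (edgeR adjusted p = 0.0268). Cyp2f2, at 2.22 (edgeR adjusted p = 0.0555), was not called. Among 19 genes that glucocorticoids induce or that act in that response, none was called by edgeR or limma-voom, and 2 were called by DESeq2. By edgeR 4 of them had an unadjusted p below 0.05, beside 4135 of all 14033 tested genes. The nearest to a call was Klf15, at -0.74 (edgeR adjusted p = 0.0900), beside a list median of -0.06.

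Of the 16 genes called on these lists, 1 (Trf) passed whichever of the 7 libraries was dropped. Leaving out mdx replicate 1, 2, 3 or 4 ended 6, 10, 13 or 10 of the calls. Leaving out mdx/Runx1f/f replicate 1, 2 or 3 ended 6, 15 or 9. The fold change of Cyp2e1 moved by over 1.5 times without mdx replicate 1, to a log2 value of 2.84.

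**Figure D4:**
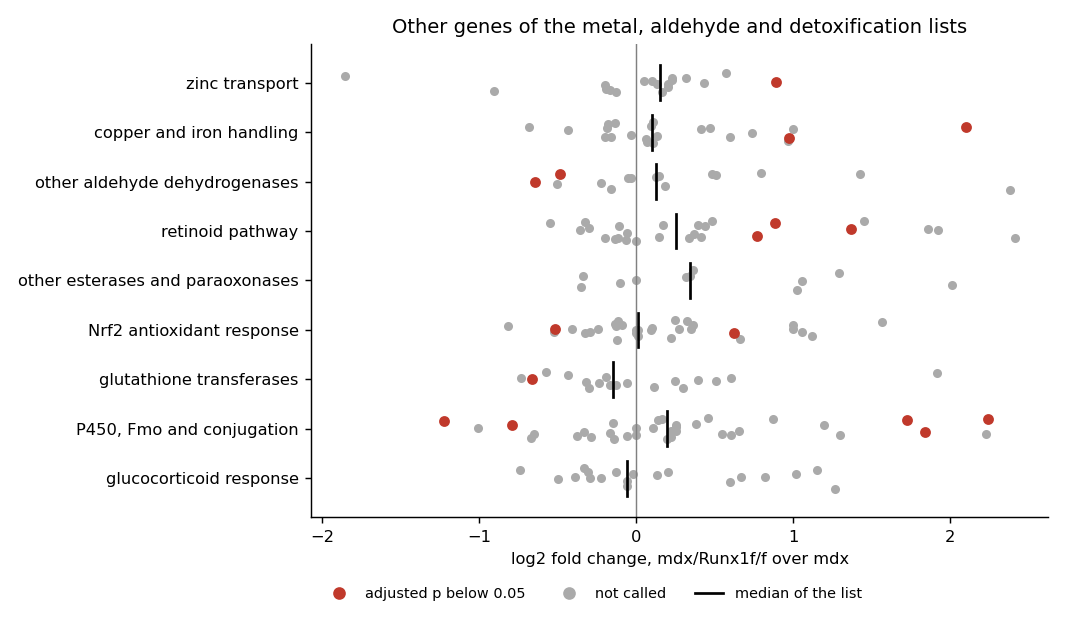
Log2 fold change, mdx/Runx1f/f over mdx (horizontal axis), of every tested gene outside the 9, 1 point per gene, by list; red points passed an adjusted p below 0.05 in the edgeR fit, grey points did not, and black bars are list medians. List medians lay between -0.15 and 0.34, and the called genes, 10 higher and 6 lower, were spread over 7 of the 9 lists.

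The genes whose within-group pattern over the 7 libraries was most like that of each member are given as a description, from 12144 candidates and with the group means taken off. For Ces1f they were Supt6h, Fasn and Pcyox1, with Pearson correlations of 0.997, 0.995 and 0.987. Fasn encodes fatty acid synthase and had a log2 fold change of 1.45. For Pon1 they were BC044870, Mphosph8 and Cdo1, at 0.982, 0.981 and 0.978. For Mt1 they were a gene listed only by an identifier, at 0.999, then Brd8 and Ptprc, both at 0.996. For Mt2 they were Csf3r, Rab32 and Pik3c3, at 0.995, 0.994 and 0.994. For Aldh1a1 they were Crhr2, Rpp21 and Orai1, at 0.997, 0.996 and 0.993. For Mt3 they were Brap, Otub2 and Rab6b, at 0.995, 0.991 and 0.989. For Aldh1a2 they were Ccrn4l, Rfc4 and Tcn2, at 0.996, 0.992 and 0.990. Faim, Cmtm7 and Gar1 were most like Aldh1a3, at 0.987, 0.982 and 0.981. Drp2, Elac2 and Zfp385b were most like Aldh3a1, at 0.976, 0.969 and 0.966. These are the highest of 12144 values over 7 libraries that share depth and composition, and carry no p.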

How the data were processed

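The authors aligned reads with TopHat2 2.0.10 to mm9, counted them per gene with HTSeq and used DESeq2 1.6.3, per the submitters' processing notes. The deposited table holds raw counts, and a signal per library that is those counts divided by 1 size factor, checked on the values. It also gives the authors' mean signal, log2 fold change with its standard error (a column of another kind) and p-value, per the file headers. For annotation, strand setting and reads with several matches the sources used here give nothing, so paralogs and overlapping genes are uncertain. Every pair of libraries differed beyond counting noise (lowest chi-square 15.9 per degree of freedom).

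Columns were joined to samples by the animal number in the titles. After filterByExpr, 14033 genes with 99.9% of counts were left. Their raw counts went into edgeR 4.0.16 (R 4.3.3) with TMM factors and 1 term, the group; p-values of its quasi-likelihood test were adjusted by Benjamini-Hochberg. The SE is the log2 fold change over the root of F. On simulated counts of 14033 genes for this comparison, 57% of genes changed 2-fold and 87% of those changed 4-fold were recovered, and 2.04% of calls were false. The simulation changed 200 genes drawn at random and held no difference between the 2 series of animal numbers. Its shares are averages over all count levels and need not hold for the calls here. Replicates are animals as the titles number them. Ratios and means use the authors' normalised counts, and exon lengths come from GENCODE M21. Log2 CPM used a prior count of 2. The members, the pathway lists and the marker lists were chosen with earlier results of these data known. Named from each list were up to 6 called genes of smallest p and the nearest uncalled gene (1 called gene of the retinoid list is not reported here), and for likeness the 3 genes of highest correlation among genes whose normalised count averaged 20 or more. The nearest 2 tested genes on each side counted as neighbours. Alternatives were DESeq2 1.42.0, limma 3.58.1 (voom), other size factors, other filters, covariates and left-out libraries.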

Additional observations from a re-analysis of the deposited data

Results flagged for a closer look

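Over the same 4 libraries labelled mdx, 28 quantities were checked, such as a gene's level or a list's sum. In 2 of them a library stood apart from the other 3. The 28 share their libraries, so no share expected by chance is set beside them. Aldh3a1 was at 16.7 normalised counts in mdx replicate 2 and between 3.17 and 4.94 in the others. The summed count of the muscle fibre markers was 1769873 in mdx replicate 3 and between 1407987 and 1447828 in the others.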

How the results depend on the processing

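Over all genes, 715 were higher and 260 lower, and 10 and 6 on the pathway lists. With DESeq2 these counts were 1472, 872, 27 and 14, and with a covariate for the 2 series of animal numbers 1246, 582, 21 and 12. Within animals 373 to 375 alone, where the lone library labelled mdx/Runx1f/f is assumed to vary like the other group, they were 1361 and 440, with 32 and 7 on the lists. Within animals 358 to 363 alone edgeR called 0 genes, with 2 libraries a group, while 2669 of all genes had an unadjusted p below 0.05 there. Between libraries of the same title number, the correlation of deviations from group means was -0.01, 0.24 and 0.28 for pairs 1 to 3. Between libraries of different numbers it was -0.46 to 0.51. With so few libraries per group mean, these values cannot show whether the numbers pair the libraries. With the number as a replicate block the counts were 240, 80, 3 and 3. Without 1 library they ranged from 173 to 641, 17 to 209, 1 to 16 and 0 to 5. The members' calls also depend on the fit: 4 with all libraries, 5 with DESeq2, 1 with limma-voom, 0 with the replicate block, 0 to 3 without 1 library, 0 within animals 358 to 363 alone, and 7 within animals 373 to 375 alone (Mt1, Mt2, Mt3, Aldh1a1, Aldh3a1, Ces1f and Pon1). The cause was not tested. Mt3, Aldh3a1, Ces1f and Pon1 rest on 3 to 30 reads in each library labelled mdx, and under the filter of 10 CPM they were not tested.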
